A study of Mus musculus with 15 samples.

Results

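The genes described here are 3 steroid receptors, *Esr1*, *Pgr* and *Nr3c1*, the estrogen-induced co-factor gene *Greb1*, and 4 genes for proteins that the uterine epithelium secretes, *Ltf*, *C3*, *Lcn2* and *Clu*. They were taken as the rows of the expression table whose Ensembl identifiers carry these symbols. All 8 were found among the 16729 genes of the table, and all 8 passed the filter on low values in every comparison. The RNA came from mouse endometrial epithelial organoids, which are cultures of uterine epithelial cells grown in Matrigel. Control organoids came from *Smad2* flox/flox; *Smad3* flox/flox mice and were grown with the DMSO vehicle (control + vehicle, n = 3) or with A83-01, a kinase inhibitor of the TGFβ type 1 receptors ALK4, ALK5 and ALK7 (control + A83-01, n = 4). *Smad2/3* cKO organoids carried the same floxed alleles plus a single *Ltf*-cre allele and were likewise grown with vehicle (*Smad2/3* cKO, n = 4) or with A83-01 (*Smad2/3* cKO + A83-01, n = 4).

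The Cre recombinase is expressed from the lactoferrin gene, and the mice received estradiol around weaning to switch it on. The *Ltf* level in the *Smad2/3* cKO groups is therefore measured in cells in which an *Ltf* allele carries Cre, and the allele and the loss of SMAD2/3 cannot be told apart for that gene. The ingredients given for the organoid medium do not name estradiol. They include the N2 and B-27 supplements, which as commercial mixtures hold progesterone and, in B-27, corticosterone. In bulk RNA, fewer cells of a type and less RNA per cell cannot be told apart. The methods describe separate mice within a condition, but the description numbers are shared between groups. Replicates 1, 2 and 3 of control + vehicle carry the same numbers as replicates 1, 2 and 3 of control + A83-01. *Smad2/3* cKO replicate 1 also has the number of replicate 1 of both control groups, and *Smad2/3* cKO replicate 2 that of *Smad2/3* cKO + A83-01 replicate 1.

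Estrogen receptor alpha, encoded by *Esr1*, is the main estrogen receptor of the uterine epithelium. On binding estradiol it attaches to DNA at paired half-sites and raises the transcription of genes for the progesterone receptor, lactoferrin, complement C3 and GREB1, which are classical readouts of estrogen in this tissue. The progesterone receptor, from *Pgr*, opposes much of that response, and the glucocorticoid receptor, from *Nr3c1*, responds to adrenal steroids. Lipocalin 2, from *Lcn2*, binds bacterial siderophores, lactoferrin binds iron, and clusterin, from *Clu*, is a secreted chaperone that also restrains the terminal complement complex.

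The promoters are shown because estrogen response elements and Smad-binding elements are the letters through which the receptors and the SMAD proteins meet DNA. RefSeq windows (GRCm38.p6) of 300 bases, 250 before and 50 after a transcription start, were matched for 6 of the 8 genes, with 8 windows in all since *Esr1* and *Greb1* have 2 each. Both strands were searched for 4 motifs. None of the 8 windows held the full estrogen response element GGTCANNNTGACC, found in 0.07% of all 32851 windows, or the steroid response element GNACANNNTGTNC of the progesterone and glucocorticoid receptors, found in 0.475%. The estrogen half-site AGGTCA, which ends in the GGTCA of the full element, occurred in 16.3% of all windows and in those of *Ltf* and *C3* and 1 of the 2 of *Greb1*. The palindromic Smad element GTCTAGAC occurred in 0.213% of all windows and in that of *Pgr* and 1 of the 2 of *Esr1*. In the stretches below, each running from 250 bases before the start to 20 bases after it, matches are in capitals.
*Greb1*, chr12:16800867-16801136, minus strand, half-site on the opposite strand at -88 to -83 from the start: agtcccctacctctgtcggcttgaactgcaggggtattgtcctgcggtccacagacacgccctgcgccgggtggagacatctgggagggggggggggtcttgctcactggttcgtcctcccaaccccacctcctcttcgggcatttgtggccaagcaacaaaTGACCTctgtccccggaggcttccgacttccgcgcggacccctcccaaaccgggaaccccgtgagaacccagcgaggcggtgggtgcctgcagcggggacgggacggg
*Ltf*, chr9:111019042-111019311, plus strand, half-site at -46 to -41 from the start: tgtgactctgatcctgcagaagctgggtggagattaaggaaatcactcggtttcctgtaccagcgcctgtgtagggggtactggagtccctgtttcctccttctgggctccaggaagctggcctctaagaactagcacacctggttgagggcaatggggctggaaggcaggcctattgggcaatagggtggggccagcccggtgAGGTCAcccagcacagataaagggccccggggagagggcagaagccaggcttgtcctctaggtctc
*C3*, chr17:57228117-57228386, minus strand, half-site at -243 to -238 from the start: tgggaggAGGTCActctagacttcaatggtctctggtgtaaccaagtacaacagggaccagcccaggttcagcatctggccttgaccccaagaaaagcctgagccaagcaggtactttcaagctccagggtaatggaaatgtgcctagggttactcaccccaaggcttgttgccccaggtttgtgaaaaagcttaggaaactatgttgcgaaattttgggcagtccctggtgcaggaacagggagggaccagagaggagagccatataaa
*Pgr*, chr9:8899583-8899852, plus strand, Smad element at bases 3 to 10 after the start: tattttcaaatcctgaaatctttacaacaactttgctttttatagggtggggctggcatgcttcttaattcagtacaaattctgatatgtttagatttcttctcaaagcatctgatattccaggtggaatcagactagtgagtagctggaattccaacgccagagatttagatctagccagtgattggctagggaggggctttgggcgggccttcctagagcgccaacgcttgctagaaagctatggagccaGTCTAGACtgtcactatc
*Esr1*, chr10:4611739-4612008, plus strand, Smad element at -238 to -231 from the start: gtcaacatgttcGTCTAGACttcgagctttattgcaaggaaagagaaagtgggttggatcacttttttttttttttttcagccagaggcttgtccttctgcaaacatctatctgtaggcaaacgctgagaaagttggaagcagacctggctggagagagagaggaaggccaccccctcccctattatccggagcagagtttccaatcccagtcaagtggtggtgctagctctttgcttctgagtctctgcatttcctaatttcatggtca
The half-site of *Ltf* lies closest to its start, while that of *C3* is near the far end of the window. The match in *Pgr* falls within the first transcribed bases. A match is a string of letters, and binding was not measured in these files.

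The values are normalized counts, that is, estimated reads per gene divided by a size factor per sample, and they summed to between 20241771 and 24423127 per sample. The lowest value of any of the 8 genes in any sample was 157 normalized counts, so none lay near the lowest level that can be measured. The epithelial markers *Epcam* and *Pax8* and the other 9 of the epithelial list had a mean of at least 10 in every group. Genes of stromal, smooth muscle and endothelial cells were low, but they were not even between groups. *Vim* was at 0 in 9 of 15 samples, *Col1a1* in 9 and *Pdgfra* in 1, while *Acta2*, *Tagln* and *Egfl7* were above 0 in every sample. Leukocyte genes were not all low, with *Cd14* at a mean of 13340 to 38098 and *Cd68* at 1857 to 5330 over the groups. The stromal list of 11 had 8 measured genes, which summed to 37.0 to 203 normalized counts in control + vehicle. The sums were 4.79 to 58.0 once A83-01 was added, and 8.63 to 43.9 in *Smad2/3* cKO. Adding the inhibitor to *Smad2/3* cKO organoids gave sums of 6.49 to 136. Each of these ranges reached into that of control + vehicle, the last one furthest. The 4 measured smooth muscle genes of 5 summed to 73.9 to 219, 29.9 to 55.1, 36.7 to 62.9 and 30.4 to 86.5 in the same order of groups. *Acta2* had a mean of 110, 18.6, 11.8 and 17.1 in that order. The 3 measured endothelial genes of 6 summed to 135 to 272, 83.7 to 224, 51.5 to 237 and 99.0 to 322. The part of these differences in the results below was not tested. *Smad2* and *Smad3* were still counted in the *Smad2/3* cKO samples, at 821 to 924 and 1170 to 1977 normalized counts against 1045 to 1335 and 1532 to 1741 in control + vehicle. Neither passed the thresholds (limma adjusted p = 0.0657 and 0.827), and a whole-gene count does not show the deleted exons.

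The 8 genes spanned a wide range of expression. Per kb of the longest annotated transcript (GENCODE M21, available for 99.8% of the genes), *Lcn2* stood at a median of 102798 normalized counts per kb over the 15 samples, *C3* at 49080, *Ltf* at 36919 and *Clu* at 8295. *Lcn2* ranked between 1 and 27, *C3* between 8 and 32 and *Ltf* between 2 and 68 of all genes on this scale. *Esr1* stood at 690 normalized counts per kb, *Greb1* at 116, *Nr3c1* at 71.8 and *Pgr* at 45.0. *Esr1* was the most abundant of the 3 receptors per kb in each group. Together the 4 secreted proteins took 4.27% to 5.77% of all normalized counts in control + vehicle, against 1.53% to 4.09% once A83-01 was added. In the *Smad2/3* cKO samples they took 2.04% to 3.80% without the inhibitor and 1.85% to 2.78% with it. The control + vehicle libraries lay above every other library in this share.

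**Figure D1:**
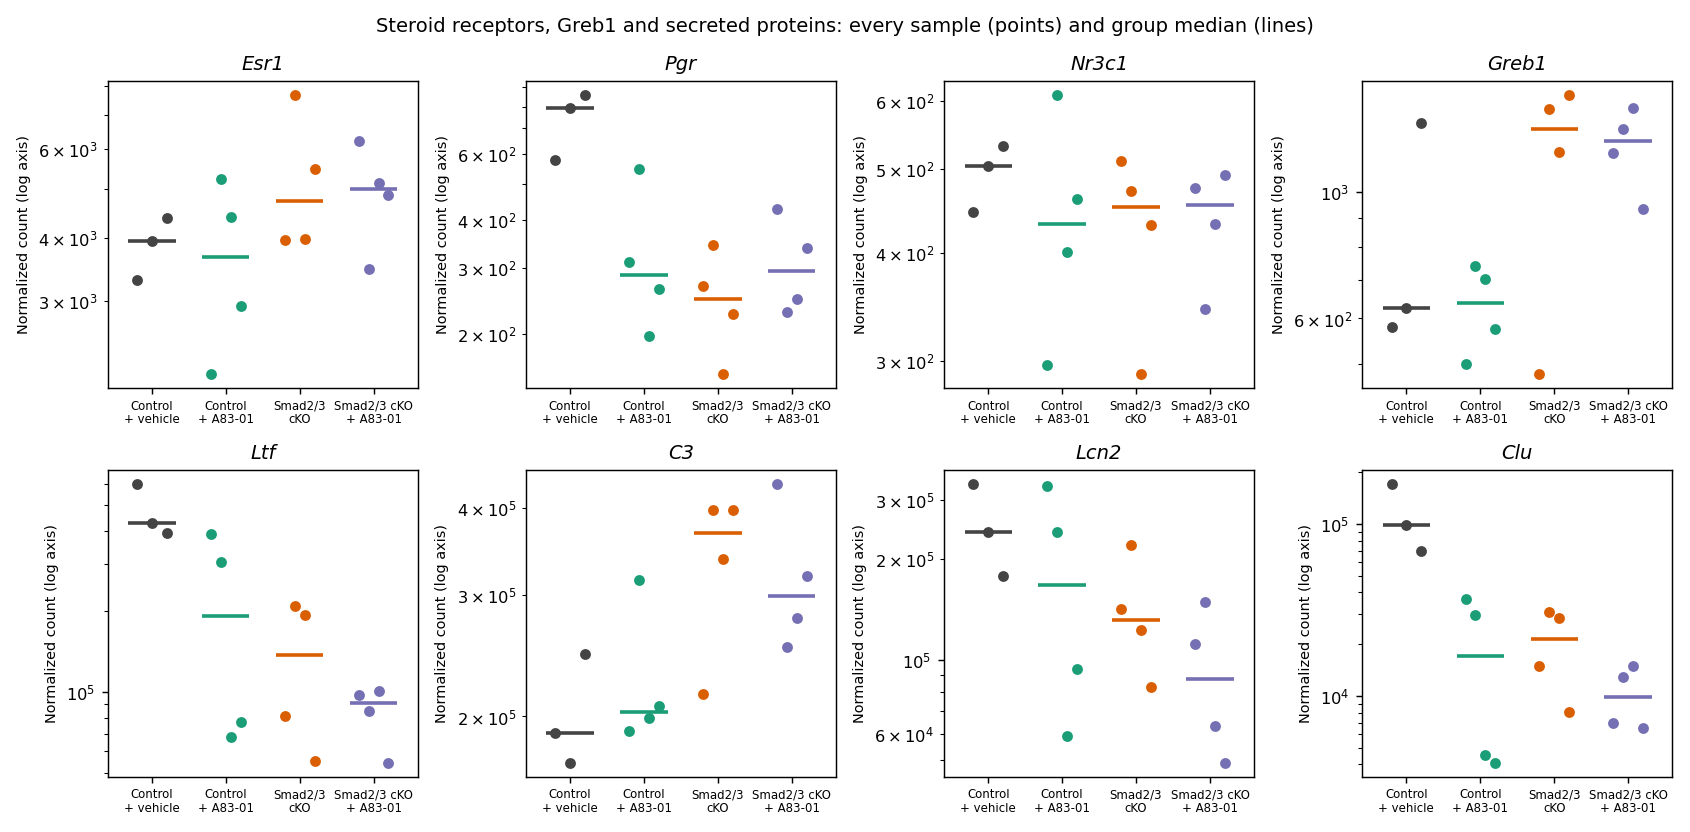
Normalized counts (log axis) of the 8 genes in the 15 samples, with a panel per gene, a point per sample and a line at each group's median. *Pgr* and *Clu* of the 3 control + vehicle samples lie above all 12 other samples, *Ltf* lies above all others with 394181 to 600426 normalized counts, and *Esr1* and *Nr3c1* overlap between all groups.

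*Smad2/3* cKO organoids were compared with control + vehicle to ask what the loss of SMAD2/3 does without inhibitor. Of the 8 genes, *Pgr* and *Clu* were lower past the thresholds and none was higher. The thresholds were an adjusted p below 0.01 (limma, Benjamini-Hochberg over 13149 genes) with a fold above 1.4 or below its inverse, and 7.38% of all genes tested passed them. Genes called lower were 3.3% of all genes tested. *Pgr*, *Ltf* and *Clu* did not overlap between the groups, against 30.8% of all genes. The median log2 difference of the 8 genes was -0.55, beside 0.00 over all genes.

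*Pgr* (ENSMUSG00000031870; chromosome 9, 8899833 to 8968611, GRCm38) carries the progesterone receptor. Its normalized counts were 577, 795 and 858 in control + vehicle and 268, 344, 157 and 227 in *Smad2/3* cKO. All 4 *Smad2/3* cKO samples were below the lowest control, and *Pgr* fell by 1.61 on the log2 scale (SE 0.28), to 0.327 of the control level (95% interval 0.211 to 0.507, adjusted p = 0.00539). The difference kept its direction without any 1 sample, but the adjusted p moved above 0.01 without control + vehicle replicate 1 (0.0149), 2 (0.0281) or 3 (0.0195) and without *Smad2/3* cKO replicate 1 (0.0121) or 4 (0.0163), and when the eBayes trend was left out (0.0161). Over all alternatives apart from leaving out a sample it ran from 0.00416 to 0.0335, the highest with the replicate number as a block.

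*Clu* (ENSMUSG00000022037; chromosome 14, 65968483 to 65981547, GRCm38) was the secreted protein with the largest difference. Its normalized counts were 171855, 99188 and 69386 in control + vehicle and 14857, 30670, 28291 and 8096 in *Smad2/3* cKO. The highest *Smad2/3* cKO sample was below the lowest control. *Clu* fell by 2.56 on the log2 scale (SE 0.48), to 0.170 of the control level (95% interval 0.0799 to 0.361, adjusted p = 0.00748). Without control + vehicle replicate 1, 2 or 3 its adjusted p was 0.0360, 0.0303 or 0.0105, and without *Smad2/3* cKO replicate 1 or 4 it was 0.0207 or 0.0127. It was also above 0.01 without the eBayes trend (0.0246), without the filter on low values (0.0144) and with all 4 groups in the fit (0.0225), and over all such alternatives it ran from 0.00593 to 0.0351, the highest again with the block.

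*Ltf* (ENSMUSG00000032496; chromosome 9, 111019271 to 111042767, GRCm38) was the gene with the highest normalized count of the table in each control + vehicle sample, at 600426, 429014 and 394181. In *Smad2/3* cKO its normalized counts were 81420, 208980, 194039 and 55396. The groups did not overlap and the difference was -2.00 on the log2 scale (SE 0.50), but the adjusted p was 0.0232 and did not pass 0.01. It passed under quantile normalization (adjusted p = 0.00565) and ran to 0.0828 over the alternatives. *Lcn2* (ENSMUSG00000026822; chromosome 2, 32384633 to 32388252, GRCm38) had 335526, 241038 and 177188 normalized counts in control + vehicle and 141244, 220473, 122290 and 82662 in *Smad2/3* cKO. *Smad2/3* cKO replicate 2 lay inside the control range, and the difference of -0.87 (SE 0.38, adjusted p = 0.148) did not pass. The sum of the 11 epithelial markers was 254965 to 328125 in control + vehicle and 134241 to 244576 in *Smad2/3* cKO. Most of this sum came from keratins, with mean *Krt7* at 100972 and 63041 and mean *Krt18* at 50497 and 31023. *Epcam*, *Pax8* and *Foxa2* had higher means in *Smad2/3* cKO (24265, 8096 and 193 against 23268, 5083 and 179), and the other markers had lower means. The part of these markers in the differences of *Ltf*, *Lcn2* and *Clu* was not tested.

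*C3* (ENSMUSG00000024164; chromosome 17, 57203970 to 57228136, GRCm38) is the central complement protein. Its normalized counts were 189553, 171493 and 245855 in control + vehicle and 215252, 397347, 338383 and 397340 in *Smad2/3* cKO. The value of *Smad2/3* cKO replicate 1 lay within the control range and those of the other 3 lay above it. The difference was 0.71 on the log2 scale (SE 0.34, 95% interval -0.05 to 1.48, adjusted p = 0.177).

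*Esr1* (ENSMUSG00000019768; chromosome 10, 4611593 to 5005614, GRCm38) showed normalized counts of 3301, 3938 and 4374 in control + vehicle and 3959, 7684, 3969 and 5486 in *Smad2/3* cKO. The groups overlapped, with a difference of 0.40 (95% interval -0.13 to 0.93, adjusted p = 0.272). *Nr3c1* (ENSMUSG00000024431; chromosome 18, 39410545 to 39519421, GRCm38) showed 446, 504 and 533 normalized counts in control + vehicle and 511, 472, 290 and 431 in *Smad2/3* cKO. Its difference was -0.24 (95% interval -0.74 to 0.26, adjusted p = 0.478). *Greb1* (ENSMUSG00000036523; chromosome 12, 16670615 to 16800886, GRCm38) varied within both groups, with 579, 626 and 1325 normalized counts in control + vehicle and 480, 1401, 1178 and 1481 in *Smad2/3* cKO. Its difference was 0.41 (95% interval -0.55 to 1.37, adjusted p = 0.535).

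*Smad2/3* cKO replicate 2 held 351 normalized counts of the macrophage gene *Adgre1*, which was at 9.01 or less in the other 14 samples. Without that sample the adjusted p was 0.00506 for *Pgr*, 0.00857 for *Clu* and 0.0190 for *Ltf*. The neutrophil genes *S100a8* and *S100a9* were highest in *Smad2/3* cKO replicate 1, at 4704 and 1968 normalized counts. Of the neutrophil list 4 of 8 genes were measured, and their sum was 235 to 581 in control + vehicle and 433 to 6739 in *Smad2/3* cKO. All 9 leukocyte genes were measured, and their sum, most of it *Cd14*, was 34306 to 50131 in control + vehicle and 14562 to 31210 in *Smad2/3* cKO. *Cd14* had a mean of 38098 in control + vehicle and 19806 in *Smad2/3* cKO. Every other gene of that list had a higher mean in *Smad2/3* cKO, with *Ptprc* at 22.8 and 225 and *Cd68* at 1857 and 3563. *Lcn2* is also a neutrophil product, and its value in *Smad2/3* cKO replicate 1 was 141244. The part of neutrophils in the *Lcn2* values was not tested.

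**Figure D2:**
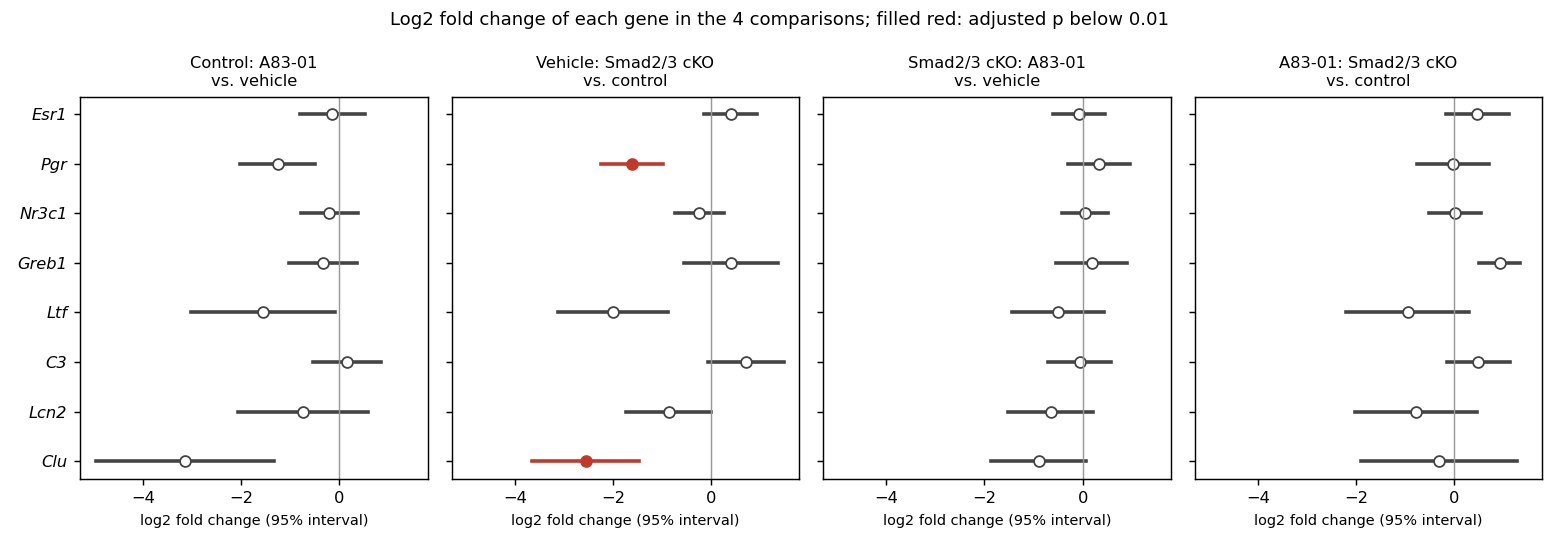
Log2 fold change (x axis, points) of each gene with its 95% interval (lines) in the 4 comparisons between groups. Filled points passed the thresholds, which *Pgr* (-1.61) and *Clu* (-2.56) did in *Smad2/3* cKO against control + vehicle and no gene did in the other 3 panels.

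The comparison of control + A83-01 with control + vehicle asks what the receptor inhibitor does in organoids with intact SMAD2/3. It shares the control + vehicle samples with the comparison above, so the results are not independent of each other. None of the 8 genes passed the thresholds, which 2.27% of the 13009 genes tested did. At an unadjusted p below 0.05 there were 3 of the 8 (limma), namely *Pgr*, *Ltf* and *Clu*, and 2882 of all genes tested, and the same 3 did not overlap between the groups, as was the case for 21.7% of all genes. The median log2 difference of the 8 genes was -0.54, beside -0.02 over all genes.

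The *Clu* normalized counts in control + A83-01 were 36885, 29459, 4542 and 4093. They lay below the lowest control + vehicle sample, 69386, and formed 2 levels, with replicates 1 and 2 above replicates 3 and 4. The difference was -3.15 on the log2 scale (SE 0.80, 95% interval -4.97 to -1.33, adjusted p = 0.0488). For replicates 1 to 3, *Clu* with A83-01 was at 0.215, 0.297 and 0.0655 of the vehicle sample with the same number. *Clu* passed the thresholds when the replicate number entered as a block, at -2.63 (adjusted p = 0.00888). Over the alternatives its adjusted p ran from 0.00488 to 0.107.

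The *Ltf* normalized counts followed the same pattern, at 390831 and 306626 in control + A83-01 replicates 1 and 2 and 67933 and 77406 in replicates 3 and 4. The highest of these was just below the lowest control + vehicle sample, 394181, and the difference was -1.56 (SE 0.65, adjusted p = 0.198). *Lcn2* had 330365 and 240069 normalized counts in replicates 1 and 2, inside the control + vehicle range, and 59191 and 93499 in replicates 3 and 4, below it. Its difference was -0.75 (SE 0.59, adjusted p = 0.518). The samples low in *Clu*, *Ltf* and *Lcn2* were thus replicates 3 and 4. *C3* in them was 199043 and 207119, beside 190385 and 315217 in replicates 1 and 2, and its difference from control + vehicle was 0.16 (SE 0.31, adjusted p = 0.821).

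Other genes with these 2 levels were picked out after their values were seen. One was *Cd14*, an innate immune receptor of macrophages that epithelia can also express. It stood at 44050 and 27313 normalized counts in control + A83-01 replicates 1 and 2 and at 4232 and 12731 in replicates 3 and 4. The complement gene *Cfb* had 125837 and 105062 in replicates 1 and 2, against 17136 and 18591 in replicates 3 and 4. In the kallikrein gene *Klk1* and the receptor gene *Lifr* the order was reversed. *Klk1* had 535 and 314 against 4766 and 4717, and *Lifr* 2638 and 2550 against 11081 and 8641. How many genes were split in this way was not tested. The leukocyte gene *Tyrobp* was at 0 in 14 of the 15 samples, those of control + A83-01 included. Others of its list, *Ptprc*, *Cd68* and *Csf1r*, were above 0 in every sample. Their means were 168, 5330 and 319 in control + A83-01 and 22.8, 1857 and 203 in control + vehicle. *Itgam* and *Adgre1* had lower means with A83-01 (3.96 and 2.49 against 19.6 and 3.32), and *Fcer1g* and *Cd52* had means of 1.89 or less in both groups. In the fit with a term for description numbers below 390, chosen after seeing the data, *Clu* passed the thresholds at -2.79 (adjusted p = 0.00488).

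The *Pgr* normalized counts were 310, 546, 197 and 264 in control + A83-01, all below the lowest control + vehicle sample, 577. The difference was -1.26 (SE 0.34), to 0.419 of the vehicle level (95% interval 0.247 to 0.712, adjusted p = 0.0581). In samples with the same number it was at 0.537, 0.688 and 0.230 of the vehicle level, lower in 3 of 3. Blocking on the replicate number left its adjusted p at 0.0591. *Esr1* had 2146, 5237, 4407 and 2925 normalized counts, which spanned the control + vehicle range on both sides (-0.15, SE 0.29, adjusted p = 0.824). *Greb1* had 499, 742, 703 and 574 (-0.33, SE 0.30, adjusted p = 0.589), and *Nr3c1* had 296, 610, 401 and 462 (-0.20, SE 0.26, adjusted p = 0.710). Both overlapped the control + vehicle samples.

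**Figure D3:**
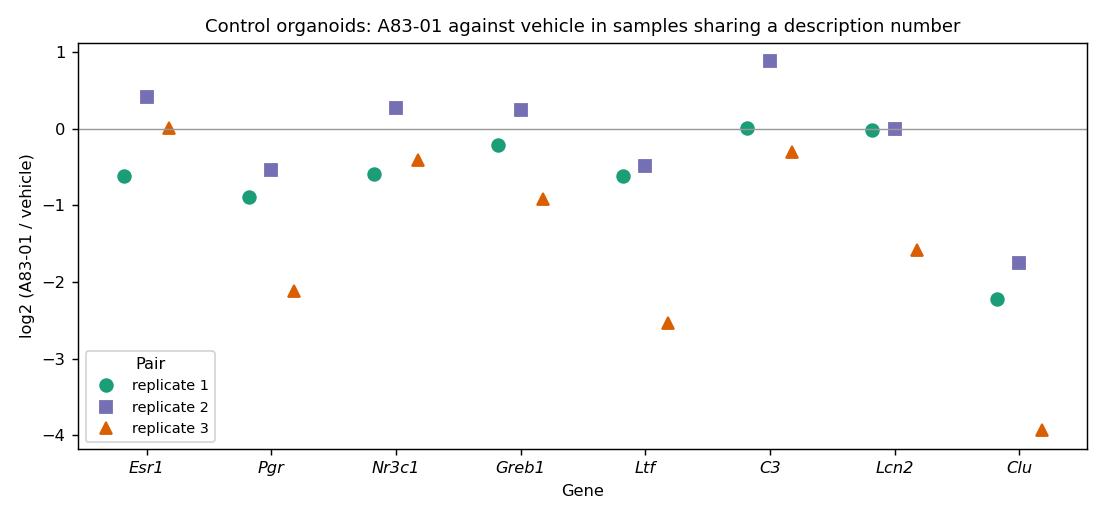
Log2 ratio of A83-01 to vehicle (y axis) for each gene in the 3 pairs of control samples that share a description number, with a marker per replicate number. *Pgr*, *Ltf*, *Lcn2* and *Clu* lie below 0 in all 3 pairs, *Lcn2* only just so in the pairs of replicates 1 and 2 (-0.022 and -0.0058), and for *Pgr*, *Ltf*, *Lcn2* and *Clu* the pair of replicates 3 lies lowest, at -2.11, -2.54, -1.58 and -3.93.

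Ratios within a library do not depend on its size factor. *Pgr* amounted to 17.5% to 20.2% of the *Esr1* normalized count in control + vehicle, and 4.48% to 14.4% once A83-01 was added. In the *Smad2/3* cKO samples it was 3.96% to 6.76% of *Esr1* without the inhibitor and 4.82% to 6.98% with it. The 3 control + vehicle samples lay above all 12 others. *Greb1* amounted to 15.9% to 30.3%, 14.2% to 23.2%, 12.1% to 29.7% and 18.8% to 37.3% of *Esr1* in the same order, and all groups overlapped. *Pgr* as a share of *Nr3c1* was 129% to 161% in control + vehicle and 49.2% to 105% over the other 12 samples. *Clu* amounted to 17.6% to 28.6% of *Ltf* in control + vehicle, and 5.29% to 9.61% once A83-01 was added. The *Smad2/3* cKO samples had 14.6% to 18.2% without the inhibitor and 7.09% to 15.1% with it. *Ltf* amounted to 160% to 317% of *C3* in control + vehicle and 13.9% to 57.3% in *Smad2/3* cKO, so that the more abundant of these secreted proteins by normalized count was *Ltf* in the former and *C3* in the latter.

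**Figure D4:**
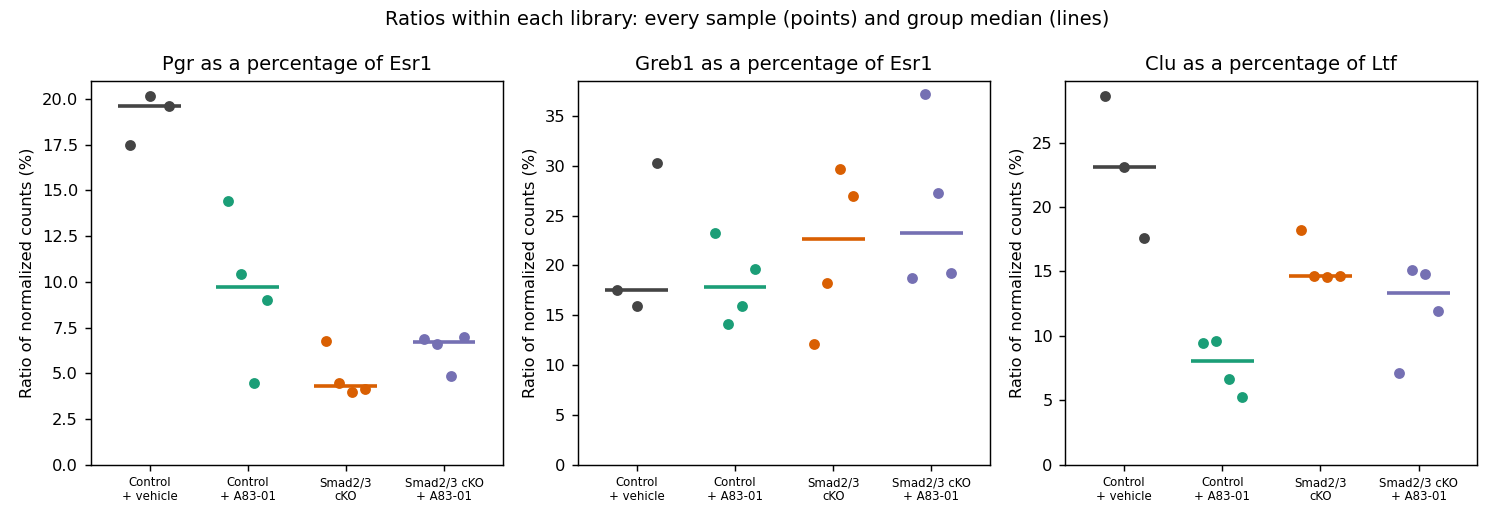
Ratio of normalized counts within each library (y axis, %) for *Pgr* to *Esr1*, *Greb1* to *Esr1* and *Clu* to *Ltf*, with a point per sample and a line at each group's median. For *Pgr* to *Esr1* the control + vehicle samples (17.5% to 20.2%) lie above all others, while for *Greb1* to *Esr1* the groups overlap.

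Adding A83-01 to *Smad2/3* cKO organoids asks whether the inhibitor acts beyond SMAD2/3. No member and no other gene passed the thresholds (0 of 12998 genes, 0%, limma), with 554 genes at an unadjusted p below 0.05, and the fit of all 4 groups also gave 0. *Pgr* had 429, 228, 248 and 339 normalized counts in *Smad2/3* cKO + A83-01, with a difference of 0.33 (95% interval -0.31 to 0.97). *Clu* had 6918, 12868, 15013 and 6483, with a difference of -0.90 (95% interval -1.86 to 0.07), and it was the member with the smallest unadjusted p, 0.0655. The samples of both genes overlapped those of *Smad2/3* cKO.

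The other secreted proteins also overlapped between these groups. *Ltf* had 97582, 84975, 101268 and 54501 normalized counts with a difference of -0.50 (95% interval -1.45 to 0.45). *Lcn2* had 111530, 148276, 63400 and 49223 with -0.65 (-1.52 to 0.22), and *C3* had 434169, 252076, 277811 and 319396 with -0.06 (-0.71 to 0.59). *Esr1* had 6239, 3462, 5138 and 4857 with -0.07 (-0.61 to 0.46), *Greb1* 1171, 1290, 1403 and 933 with 0.19 (-0.54 to 0.91), and *Nr3c1* 476, 344, 433 and 492 with 0.05 (-0.41 to 0.52). The intervals leave room for changes of a similar size to some of those above.

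*Smad2/3* cKO and control organoids were also compared in the presence of A83-01. Here 3 of 12915 genes (0.0232%) passed the thresholds, and none of the 8 was among them. *Greb1*, which was not past the thresholds in any comparison, was the only member whose groups did not overlap, against 6.12% of all genes. Its *Smad2/3* cKO + A83-01 samples, 933 to 1403, were above the control + A83-01 samples, 499 to 742, and the difference was 0.93 (SE 0.19, unadjusted p = 0.000596, adjusted p = 0.104). *Pgr* differed by -0.03 (95% interval -0.76 to 0.71), *Clu* by -0.31 (-1.89 to 1.28), *Ltf* by -0.95 (-2.20 to 0.31) and *Lcn2* by -0.77 (-2.02 to 0.47). Over the alternatives apart from leaving out a sample, *Ltf* ran from -2.07 to -0.54. *Lcn2* ran from -1.73 to -0.57 and *Clu* from -1.77 to 0.26. The lowest limma adjusted p among them was 0.0106 for *Ltf*, 0.0995 for *Lcn2* and 0.0358 for *Clu*. All *Smad2/3* cKO + A83-01 samples had description numbers below 390, as did only replicates 1 and 2 of control + A83-01.

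The interaction asks whether A83-01 acts differently in the 2 genotypes, and 72 of 13066 genes (0.551%) passed it. None of the 8 genes did. *Pgr* came closest, with an A83-01 effect 1.59 log2 units higher in *Smad2/3* cKO than in control organoids (SE 0.46, unadjusted p = 0.00378, adjusted p = 0.113). For *Clu* it was 2.25 (SE 0.98, unadjusted p = 0.0371, adjusted p = 0.307), for *Ltf* 1.06 (SE 0.82, adjusted p = 0.636) and for *Lcn2* 0.09 (SE 0.75, adjusted p = 0.976).

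The genes whose levels were most like those of *Pgr* over the 15 samples, among 13065 genes, were *Flvcr2*, a haem transporter family member (Pearson r = 0.917), and *Kdm1a*, a histone demethylase (r = 0.916). *Kdm1a* was at 2101 to 2256 normalized counts in control + vehicle and 1556 to 2034 over the other samples. Those most like *Clu* were *Ildr1* (r = 0.975) and *Cfi*, the protease that cleaves C3b (r = 0.969), with *Cfi* at 1292 to 3647 normalized counts in control + vehicle and 52.9 to 972 over the others. These r values share the difference between groups and the same libraries, so they describe likeness and carry no test.

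Among other steroid receptors, the mineralocorticoid receptor gene *Nr3c2* was at 14.5 to 116 normalized counts over the 15 samples. The membrane estrogen receptor gene *Gper1* was 170, 220 and 161 in control + vehicle, 3.70, 1.11, 10.5 and 0 in control + A83-01 and 0, 0, 6.61 and 0 in *Smad2/3* cKO. It was called lower in both comparisons with control + vehicle (adjusted p = 0.00464 and 0.00127). The control samples were at 161 or more and the others at or near the lowest measurable level, so no fold is given. Of 18 receptors and co-regulators tested, *Gper1* was the only call with A83-01 (5.56%, beside 2.27% of all genes). In *Smad2/3* cKO 11.1% were called, beside 7.38% of all genes.

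Of 31 other estrogen-responsive uterine genes tested, 4 were called with A83-01 (2 higher, 2 lower) and 8 in *Smad2/3* cKO (4 higher, 4 lower). These were 12.9% and 25.8% of the list, beside 2.27% and 7.38% of all genes tested. The calls went both ways. *Fos*, an early-response transcription factor gene, was at 2178 to 2581 normalized counts in control + vehicle, 390 to 719 in control + A83-01 and 260 to 644 in *Smad2/3* cKO, a log2 difference of -2.17 with A83-01 and of -2.43 in the deletion (adjusted p = 0.00110 and 0.000994). *Aqp8*, a water channel gene, rose by 2.61 and 2.85 (adjusted p = 0.00178 and 0.000423), while its log2 difference with A83-01 in *Smad2/3* cKO organoids was 0.30 and did not pass (interaction -2.30, adjusted p = 0.00268). *Klk1*, a secreted kallikrein, was 5.20 higher in *Smad2/3* cKO (adjusted p = 0.00438). With A83-01 in control organoids it was 5.49 higher and did not pass (adjusted p = 0.0141). *Sprr2b* had log2 fold changes of -4.87 and -4.55 and *Sprr2g* of 2.75 and 2.11. The *Sprr2* genes are close copies whose reads may have been split between them, so these opposite values are uncertain.

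Of 14 progesterone-responsive epithelial genes tested, 3 were called with A83-01 (1 higher, 2 lower) and 4 in *Smad2/3* cKO (2 higher, 2 lower). These were 21.4% and 28.6% of the list, beside 2.27% and 7.38% of all genes tested. The retinoic acid hydroxylase gene *Cyp26a1* rose by 4.66 and 4.43 (adjusted p = 0.00105 and 0.00124), and *Fst*, the activin antagonist follistatin, was called lower in both, from 247 to 1183 normalized counts in control + vehicle to 5.22, 17.5, 9.39 and 0 in control + A83-01, where no fold is given, and to at most 48.6 in *Smad2/3* cKO, a log2 difference of -4.47 (adjusted p = 0.00671 and 0.00239). *Lifr*, the receptor of leukaemia inhibitory factor, was 3.54 higher and the carbonic anhydrase gene *Car2* lower, at -1.06, in *Smad2/3* cKO (adjusted p = 0.000563 and 0.00264). With A83-01 in control organoids they differed by 2.63 and -0.47 and did not pass (adjusted p = 0.0322 and 0.382). The endocytic receptor gene *Lrp2* was 114, 20.8 and 85.8 normalized counts in control + vehicle and 0, 2.46, 0 and 0 in control + A83-01, where it was called lower (adjusted p = 0.00844). In *Smad2/3* cKO it was 0, 30.8, 4.46 and 0 and did not pass (adjusted p = 0.0526). The calls in this list, too, went both ways.

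Of 14 glucocorticoid-responsive genes tested, a list that also holds *Lcn2*, 2 were called and both were higher in each of these comparisons. That was 14.3% of the list in each, beside 2.27% of all genes with A83-01 and 7.38% in *Smad2/3* cKO. *Klf9* rose by 1.35 with A83-01 and also passed in *Smad2/3* cKO (adjusted p = 0.00494 and 0.000759), and *Sgk1*, a kinase gene that steroids induce, rose by 1.27 and 2.05 (adjusted p = 0.00467 and 0.00104). The other 12 did not pass, and *Nr3c1* itself did not pass in any comparison. Among the partners of *C3* in the complement cascade, 0 of 13 tested genes were called with A83-01 and 1 of 17 (5.88%) in *Smad2/3* cKO. These shares were below those of all genes, 2.27% and 7.38%. The gene called was *Cfb*, whose product joins C3b in the alternative convertase. It was at 109129 to 148037 normalized counts in control + vehicle and 24355 to 67106 in *Smad2/3* cKO, a log2 fold change of -1.78 (adjusted p = 0.00696), while the *C3* samples overlapped.

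Of 16 other innate defence proteins of epithelia, 1 was called with A83-01 and 2 in *Smad2/3* cKO, all higher. These were 6.25% and 12.5% of the list, beside 2.27% and 7.38% of all genes tested. The defensin gene *Defb1* rose from 21.7 to 33.3 normalized counts in control + vehicle to 497 to 630 and 464 to 1016 (log2 fold changes 4.22 and 4.72, adjusted p = 0.000106 and 0.000103). With A83-01 in *Smad2/3* cKO organoids its log2 difference was -0.06 and did not pass (interaction -4.28, adjusted p = 0.000298). *Wfdc18*, a small secreted protein with a WAP domain, was 4.75 higher in *Smad2/3* cKO (adjusted p = 0.00300). The direction of these genes was opposite to that of *Clu*. No gene of any of these lists passed the thresholds when A83-01 was added to *Smad2/3* cKO organoids or when the genotypes were compared with A83-01.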

How the data were processed

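RNA-seq of 15 mouse endometrial organoid samples was used. The authors made cDNA with an ultra-low input kit, estimated counts per gene with Salmon (1.4.0) against GRCm39 and processed them with DESeq2 (1.32.0), per the labels and the methods. The values the authors deposited (signal) are normalized counts, that is, estimated counts divided by 1 size factor per sample. The median ratio to the geometric mean over 12745 genes was 1.01 in every sample.

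Each comparison was fitted on its own samples, or in 1 fit of all 15 for the interaction, with limma (3.58.1, R 4.3.3, eBayes with trend, two-sided) on log2(normalized count + 1), keeping genes whose mean reached 10, and adjusted by Benjamini-Hochberg over all of them. The fit was tested on simulated data. A fold change is on this log2 scale. Groups follow the sample titles. The 8 genes and all lists were chosen with earlier results of these data known. From each list, called genes with the largest changes are named, at most 4 per comparison, and for each called member the 2 genes with the highest r over the 15 samples. *Nr3c2*, *Cd14*, *Adgre1*, *S100a8*, *S100a9* and *Tyrobp* were named after their values were seen. So were *Ptprc*, *Cd68*, *Csf1r*, *Itgam*, *Fcer1g*, *Cd52*, *Krt7*, *Krt18*, *Foxa2*, *Pdgfra*, *Tagln* and *Egfl7*. Some genes of the lists are not reported here. Same-numbered control samples deviated together from their group means (r across genes 0.354 to 0.423 for the 3 pairs, mean -0.133 for other pairs, of which control + A83-01 replicate 4 with control + vehicle replicate 3 had 0.348), so the replicate number was also used as a block. Positions are those of GRCm38 and were not converted. The raw depth of the libraries is unknown, since only scaled values were used. Mice are described as separate within a group but numbers recur between groups, so p-values measure the spread between these samples. Alternatives were another pseudocount, filter, scaling, eBayes setting, sample weights, block, threshold, all 4 groups in 1 fit, a term for the description number (added after seeing the data) and leaving out each sample.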

Additional observations from a re-analysis of the deposited data

Results flagged for a closer look

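*C3* in control + A83-01 replicate 2 stood apart from the other 3 samples of its group. Its normalized count was 315217, beside 190385, 199043 and 207119, and the gap to the nearest sample was 0.833 of the range of the group on the log2 scale, just above Dixon's 95% critical value for 4 samples. In the 24 sets of 4 samples examined, chance alone picks out about 1 in 20. Without this sample the difference of *C3* between control + A83-01 and control + vehicle was -0.0087 in place of 0.16 on the log2 scale.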

How the results depend on the processing

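The comparison of *Smad2/3* cKO with control + vehicle called 970 genes (536 higher, 434 lower) and 2 of the 8. Rescaling each sample to the same total gave 440 higher and 538 lower. The number of the 8 called was 1 without a filter on low values and 1 with all 4 groups in the fit, in both cases *Pgr*, and 0 without the eBayes trend. It was 3, *Ltf* included, under quantile normalization and at an adjusted p below 0.05. All genes called were 452 without the trend and 2413 at an adjusted p below 0.05. Without 1 sample at a time, 280 to 992 genes and 0 to 2 of the 8 were called, with 280 and 288 without control + vehicle replicate 1 or 2 and 524 and 443 without *Smad2/3* cKO replicate 1 or 4. With A83-01 in control organoids, 295 genes were called. There were 146 without a filter, 582 with sample weights, 655 with all 4 groups, 443 with the description number below 390 as a term (chosen after seeing the data), 955 at an adjusted p below 0.05 and 49 to 312 without 1 sample (53, 49 and 128 without control + vehicle replicate 1, 2 or 3, and 140 and 116 without control + A83-01 replicate 3 or 4). *Clu* was then the 1 called of the 8 with sample weights, with that term, at an adjusted p below 0.05 and with the block.

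With the replicate number as a block, 399 genes and 1 of the 8 (*Clu*) were called for A83-01 in control organoids, 211 and 0 for *Smad2/3* cKO without inhibitor, 0 with A83-01 added to *Smad2/3* cKO, 0 for *Smad2/3* cKO with inhibitor and 63 for the interaction. A block on the shared description number gave the same fit for the control samples. Outside the control groups not every pair with the same replicate number deviated together (mean r 0.0564, 0.13 and -0.0207), and these mostly differ in description number. A pair there that shares a description number, *Smad2/3* cKO replicate 2 with *Smad2/3* cKO + A83-01 replicate 1, had r = 0.355, and *Smad2/3* cKO replicates 3 and 4 with the same replicates of *Smad2/3* cKO + A83-01 had 0.374 and 0.375. *Smad2/3* cKO replicate 1 and control + vehicle replicate 1, which also share a number, had 0.0774. A83-01 in *Smad2/3* cKO gave 0 calls under each alternative run. For the genotypes with A83-01, calls were 0 without a filter, 1 without the trend, 5 with all 4 groups, 72 with the number term and 0 to 4 without 1 sample (0 without control + A83-01 replicate 2 or 4 or *Smad2/3* cKO + A83-01 replicate 1, 2 or 3). Interaction calls were 127 with sample weights, 208 at an adjusted p below 0.05 and 39 to 77 without 1 sample (39, 46, 45 and 44 without control + vehicle replicate 2, control + A83-01 replicate 4, *Smad2/3* cKO replicate 4 and *Smad2/3* cKO + A83-01 replicate 3).

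Directions reversed only for differences that had not passed. In control organoids these were *C3* under quantile normalization (-0.012) and, without 1 sample, *Esr1* (-0.35 to 0.082), *Greb1* (-0.55 to 0.046) and *C3* (-0.0087 to 0.31). For A83-01 in *Smad2/3* cKO they were *Nr3c1* on rescaling (-0.00256), *Pgr* (-0.011), *Nr3c1* (-0.18) and *C3* (0.10) with the number term, and, without 1 sample, *Esr1* (-0.20 to 0.13), *Nr3c1* (-0.12 to 0.16), *Greb1* (-0.18 to 0.36) and *C3* (-0.26 to 0.045). For the genotypes with A83-01 they were *Nr3c1* on rescaling (-0.024) and quantile normalization (-0.00718), *Pgr* (0.14) and *Clu* (0.26) with sample weights, and, without 1 sample, *Pgr* (-0.24 to 0.25), *Nr3c1* (-0.16 to 0.18) and *Clu* (-0.82 to 0.24). For the interaction they were *Esr1* with sample weights (-0.023), *Lcn2* with the block (-0.14) and the number term (-0.70), and, without 1 sample, *Esr1* (-0.16 to 0.27) and *Lcn2* (-0.34 to 0.49). Rescaling shifted the median of all genes by -0.11 in control organoids. The cause of these changes was not tested.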
